A study of Mus musculus with 6 samples.

Results

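The microRNAs (miRNAs) miR-106b, miR-93 and miR-25 are cut from 3 hairpins in 1 intron of the mouse gene Mcm7. Their members were taken as all sense entries that the files name Mir106b, Mir93 or Mir25, with both arms of each hairpin, which gave 6 of 1102 entries. None of the antisense entries lay opposite these hairpins. Small RNA was sequenced from 6 hearts, all from male wild-type animals of the strain C57BL/6J at 18 weeks of age, which form 1 group with no treatment named. C57BL/6J is a common inbred laboratory strain. The tissue label reads whole heart, but the protocol describes ventricular apexes frozen before Trizol extraction, so the sampled region is uncertain. Adapters of a TruSeq small RNA kit were ligated to the RNA, a step that does not capture all RNA ends equally. Ratios of miRNA to miRNA given here therefore compare reads and not molecules.

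A miRNA hairpin yields a 5p and a 3p arm, and usually 1 of them is loaded into an Argonaute protein while the partner is degraded. Bases 2 to 8 of the loaded arm, the seed, pair with target mRNAs, so miRNAs with the same seed share many predicted targets. The miR-106b to miR-25 cluster is a paralog of the miR-17-92 cluster, and Mcm7, its host, encodes a subunit of the replicative DNA helicase. In human cells, miR-106b and miR-93 are known to repress the cell cycle inhibitor CDKN1A, and miR-25 the pro-apoptotic gene BCL2L11. In mouse heart, miR-25 has been described as a repressor of the calcium pump gene Atp2a2.

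The mature sequences below, from RefSeq (GRCm38.p6), show which arms share a seed. Capitals mark the seed. All 6 arms matched RefSeq by name.
miR-106b-5p: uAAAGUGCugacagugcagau
miR-106b-3p: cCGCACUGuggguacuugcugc
miR-93-5p: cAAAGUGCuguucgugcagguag
miR-93-3p: aCUGCUGAgcuagcacuucccg
miR-25-5p: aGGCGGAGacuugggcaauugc
miR-25-3p: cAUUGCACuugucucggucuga
The 5p arms of miR-106b and miR-93 share the seed AAAGUGC and are identical at 16 of 21 aligned positions. miR-25-3p has another seed, AUUGCAC. No other mature miRNA in the RefSeq table shares its first 18 bases with any of the 6 arms. The files list miR-25-5p with 21 bases and RefSeq lists it with 22.

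The hairpins are shown because the arms compared below come from them. They are RefSeq sequences on the minus strand of chromosome 5 (GRCm38.p6), in the order of transcription, with the mature arms in capitals.
miR-106b hairpin: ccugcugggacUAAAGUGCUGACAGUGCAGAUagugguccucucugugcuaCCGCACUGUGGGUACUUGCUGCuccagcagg
miR-93 hairpin: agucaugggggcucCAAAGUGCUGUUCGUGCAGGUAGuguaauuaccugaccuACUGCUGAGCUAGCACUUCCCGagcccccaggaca
miR-25 hairpin: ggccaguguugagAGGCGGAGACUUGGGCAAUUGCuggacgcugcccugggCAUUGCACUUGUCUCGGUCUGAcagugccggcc
The miR-106b hairpin spans chr5:138165737-138165818, the miR-93 hairpin chr5:138165523-138165610 and the miR-25 hairpin chr5:138165321-138165404. Gaps of 126 and 118 bases separate them, and the whole cluster covers 498 bases. It lies in intron 13 of the principal Mcm7 transcript, which has 15 exons. The miR-106b hairpin is intronic in 2 transcripts and exonic in 0, and the hairpins of miR-93 and miR-25 are each intronic in 2 and exonic in 1.

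The library totals ran from 3966171 to 6007325 counts. Levels are given in CPM, that is reads per 1000000 counted reads of the same library, as mean ± SD over the 6 hearts. The cardiac and skeletal muscle markers, 4 of 4 measured, were abundant, with a sum of 94127 to 106440 CPM. Markers of liver, nerve and skeletal muscle alone, 2 of 3 measured, summed to 9.03 to 74.6 CPM, lowest in heart 1.

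All 3 hairpins were detected in every heart, and the cluster held 52462 reads in all, or 1772 ± 105 CPM and 0.177% of the counts. Reads increased along the transcript, with miR-106b lowest and miR-25 highest. miR-25-3p, the main product, had 1304, 1175, 1227, 1133, 1256 and 1243 CPM in hearts 1 to 6. Its mean of 1223 ± 60.8 CPM ranked 51 of 994 mature miRNAs, and heart 1 was highest and heart 4 lowest. miR-25-5p, its partner, had 3, 7, 3, 1, 8 and 5 reads, or 0.871 ± 0.440 CPM. With so few reads its order among hearts cannot be read.

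miR-93-5p had 476, 441, 422, 381, 430.1 and 387 CPM in hearts 1 to 6, with a mean of 423 ± 35.3 CPM and rank 74. Heart 1 was again highest and heart 4 lowest. miR-93-3p had 15, 27, 24, 22, 30 and 18 reads, a mean of 4.67 ± 1.18 CPM. Here hearts 1 and 6 were lowest, but the hearts did not differ beyond counting error in this arm (chi-square test, adjusted p 0.233).

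miR-106b-5p had 119, 87.2, 90.6, 71.4, 80.7 and 63.2 CPM in hearts 1 to 6, a mean of 85.4 ± 19.4 CPM at rank 133. Heart 1 stood highest and heart 6 lowest. miR-106b-3p had 40.3, 32.8, 34.3, 33.3, 37.0 and 36.8 CPM, a mean of 35.7 ± 2.83 CPM at rank 177. Heart 6 was lowest in the 5p arm but above hearts 2, 3 and 4 in the 3p arm. Hearts did not differ beyond counting error in the 3p arm (chi-square test, adjusted p 0.424), so its order of hearts cannot be relied on.

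**Figure D1:**
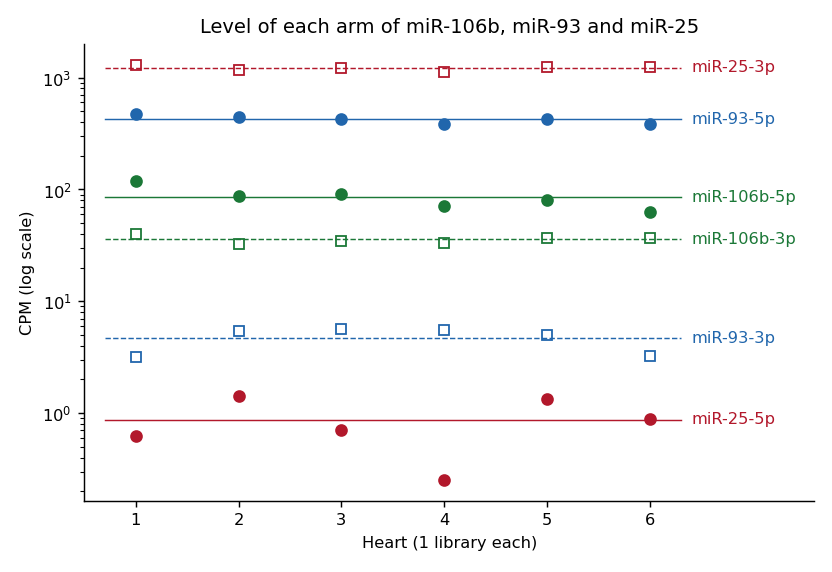
Level of each arm in CPM (log scale) against heart, 1 point per library. miR-25-3p lies highest in every heart (1133 to 1304 CPM) and miR-25-5p lowest (0.252 to 1.41 CPM).

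The hearts differed by more than counting error in 3 of the 5 arms that averaged 10 or more reads (chi-square test of the 6 counts, Benjamini-Hochberg over 353 miRNAs). That share is read against 72.0% of all 353 miRNAs, and 90.0% of the 211 that averaged 100 or more. The adjusted p was 2.22e-21 for miR-106b-5p, 4.25e-13 for miR-93-5p and 8.38e-13 for miR-25-3p. It was 0.424 for miR-106b-3p and 0.233 for miR-93-3p, so differences between hearts in these arms were not detectable at this depth.

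The size of the spread differed among the arms. The coefficient of variation (CV) of miR-25-3p in CPM was 4.98%, against 1.29% from counting alone, place 7 from the lowest among those 211 miRNAs. That place depends on the measure: the biological CV that edgeR fitted after TMM scaling was 12.4%, place 33, where the median was 15.4%. The other values here are again CVs of CPM. miR-106b-3p had a CV of 7.93% against 7.52% from counting, and miR-93-5p one of 8.34% against 2.19%. miR-106b-5p had a CV of 22.8% against 4.89%, place 179 from the lowest, where the median CV was 12.3%. Without heart 1 its mean was 78.6 CPM, and its adjusted p against counting was 4.01e-06.

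Set beside each other, miR-25 made up 69.1% ± 1.67 of the cluster's reads, miR-93 24.1% ± 1.03 and miR-106b 6.80% ± 0.818. Per heart, both arms summed, miR-93 had 3.0 to 3.90 times the reads of miR-106b. miR-25 had 8.17 to 12.4 times those of miR-106b and 2.63 to 3.19 times those of miR-93. Heart 1 was lowest in both ratios over miR-106b and heart 6 was highest in all 3 ratios. The same order of hairpins held in 6 of 6 hearts.

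All 3 ratios were called by edgeR's quasi-likelihood test, blocked by library and adjusted over 181 pairs of hairpins of the same cluster. Clusters joined hairpins within 10 kb of a neighbour on the same strand, so paired hairpins can lie farther apart and large clusters give more pairs. A call needed an adjusted p under 0.05 and a 2-fold ratio or more. miR-93 over miR-106b had a log2 ratio of 1.83 (SE 0.08, 3.56-fold, adjusted p 2.47e-17). miR-25 over miR-106b reached 3.35 (SE 0.08, 10.2-fold, adjusted p 1.01e-21), and miR-25 over miR-93 1.52 (SE 0.07, 2.87-fold, adjusted p 2.69e-16). An exact two-sided sign-flip test gave 0.03125 for each, the smallest p that 6 libraries allow. Over all pairs, 76.8% were called, 42.5% with the downstream hairpin higher and 34.3% with the upstream hairpin higher, so unequal hairpins were the usual case in these libraries. These ratios depend on which arm is kept: with the 3p arms alone miR-93 was below miR-106b (log2 −2.95), and with the 5p arms alone miR-25 was below both.

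The arm that dominated was not the same along the cluster. The 5p arm led in miR-106b and miR-93 and the 3p arm in miR-25. In miR-106b the 5p arm took 74.7, 72.7, 72.5, 68.2, 68.6 and 63.2% of the hairpin's reads in hearts 1 to 6, a mean of 69.99% ± 4.18. In miR-93 it took 98.9% ± 0.301, and in miR-25 0.0710% ± 0.0365. In all 6 hearts the order of the arms was the same for each hairpin.

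In edgeR, adjusted over 210 hairpins, miR-106b had a log2 ratio of 5p to 3p of 1.23 (SE 0.12, 2.35-fold, adjusted p 7.41e-24). miR-93 had 6.51 (SE 0.15, 91.1-fold, adjusted p 3.78e-237). miR-25 had −10.36 (SE 0.18), that is 1312-fold more 3p than 5p, on 27 reads of 5p. The exact sign-flip test gave 0.03125 for each. Of all 210 hairpins 48.6% were called for 5p, 40.5% for 3p and 89.0% in either direction, so such calls were the usual case. The p-values rest on a spread that edgeR largely pooled over hairpins. The size of the excess differed widely. The minor arm held 29.7% of the pooled reads of miR-106b, place 28 from the highest, against 1.08% in miR-93 (place 140) and 0.0745% in miR-25 (place 187), where the median hairpin had 2.96%.

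**Figure D2:**
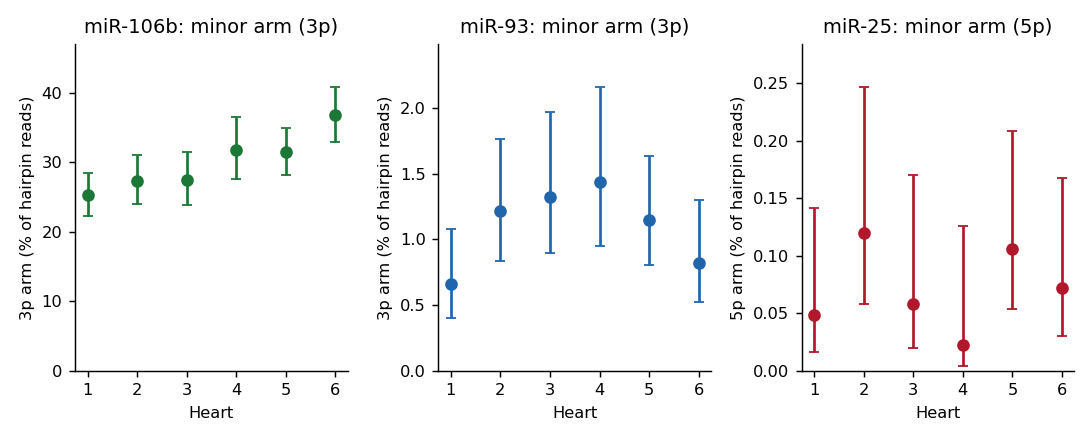
Share of each hairpin's reads on its minor arm (percent) against heart, with 95% Wilson intervals that cover counting error only. The 3p share of miR-106b runs from 25.3% in heart 1 to 36.8% in heart 6, while the shares of miR-93 and miR-25 stay at or below 1.44%.

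The arm share of miR-106b differed between hearts beyond counting error (chi-square test, adjusted p 0.000745 over 210 hairpins), which 26.7% of all hairpins did. Heart 6 decided this call: without it the adjusted p was 0.153. For miR-93 the adjusted p was 0.315 and for miR-25 0.561. First bases also differed. The major arm starts with U in miR-106b and with C in miR-93 and miR-25, where 53.3% of 135 called hairpins with a RefSeq sequence had U on the major arm and 20.0% had C.

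Relatives with the same seeds are shown next, since they share predicted targets. They come from the miR-17-92 cluster on chromosome 14, from its copy on the X chromosome, or from other loci. Capitals mark the seed (RefSeq, GRCm38.p6).
miR-17-5p: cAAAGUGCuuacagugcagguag
miR-20a-5p: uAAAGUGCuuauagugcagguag
miR-92a-3p: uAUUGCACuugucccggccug
miR-92b-3p: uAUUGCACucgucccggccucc
miR-32-5p: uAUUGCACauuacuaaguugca
miR-17-5p and miR-20a-5p are each identical to miR-106b-5p at 18 of 21 positions, and miR-92a-3p to miR-25-3p at 18 of 21. miR-92a-3p is encoded on chromosomes 14 and X, and its reads were summed.

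Among reads with the seed AAAGUGC, which summed to 662 ± 73.5 CPM, miR-93-5p held 64.0% ± 2.64 and miR-106b-5p 12.8% ± 1.5. Together they held 76.4, 76.5, 77.0, 74.1, 76.6 and 80.1% in hearts 1 to 6, a mean of 76.8% ± 1.92. The relatives miR-20a-5p and miR-17-5p held 12.6% ± 1.03 and 10.5% ± 1.07. miR-20b-5p had 16 reads and miR-106a-5p 3 reads in all. The Mcm7 cluster thus supplied most reads of this seed in every heart.

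Among reads with the seed AUUGCAC, 3824 ± 307 CPM, miR-25-3p held 33.2, 34.3, 30.1, 31.1, 34.5 and 29.4% in hearts 1 to 6, a mean of 32.1% ± 2.22. miR-92a-3p held 66.2% ± 2.41, miR-32-5p 1.13% and miR-92b-3p 0.551%, and miR-363-3p had 22 reads. For this seed the relative, not the Mcm7 product, had the larger summed count in all 6 hearts. That count adds the miR-92a-3p loci on chromosomes 14 and X. Whether reads matching both loci were counted at each is not known, so the share of miR-92a-3p may be inflated.

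**Figure D3:**
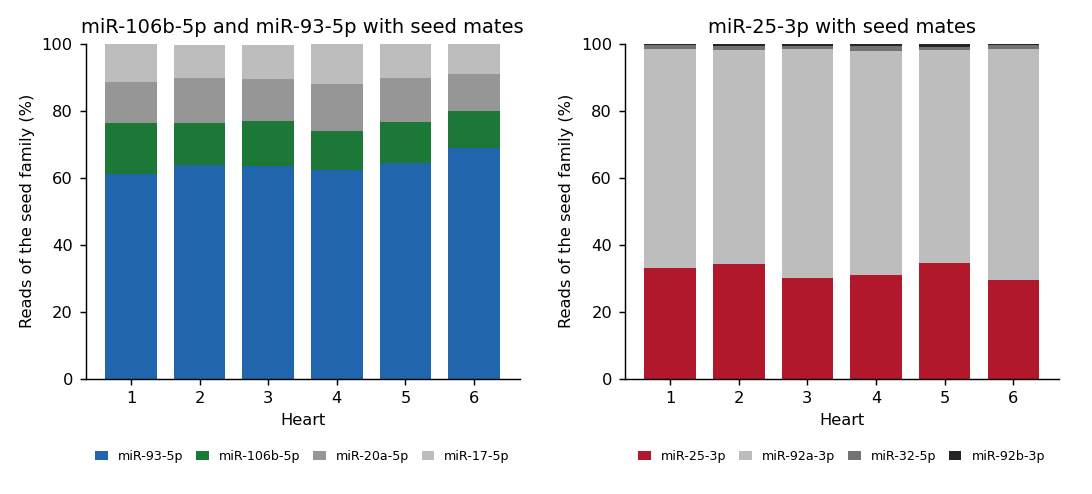
Stacked bars give the percent of reads of each seed family held by each miRNA, by heart. The Mcm7 products hold 74.1 to 80.1% of the AAAGUGC reads and 29.4 to 34.5% of the AUUGCAC reads.

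Of 8 pairs of a member with a miRNA of its seed, 6 were called by edgeR (the same limits, adjusted over 125 such pairs), against 78.4% of all 125. miR-93-5p exceeded miR-17-5p 6.12-fold (log2 2.61, SE 0.08, adjusted p 3.12e-11) and miR-20a-5p 5.08-fold (log2 2.34, SE 0.08, adjusted p 3.21e-11). miR-106b-5p was 5.03-fold below miR-93-5p (log2 −2.33, SE 0.09, adjusted p 1.03e-10). Each held in 6 of 6 hearts.

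miR-106b-5p lay close to both relatives. Per heart it had 1.35, 1.26, 1.31, 0.973, 1.18 and 1.26 times the reads of miR-17-5p, above 1 in 5 of 6 hearts. Its fitted ratio was 1.22-fold (log2 0.29, SE 0.08, adjusted p 0.00518), under the 2-fold limit. Its adjusted exact sign-flip p was 0.0651. Against miR-20a-5p the ratio ran from 0.845 to 1.27, above 1 in 3 of 6 hearts, with log2 0.01 (SE 0.09, adjusted p 0.866). The approximate 95% interval of that fold was 0.899 to 1.14.

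miR-25-3p had 0.508, 0.538, 0.439, 0.465, 0.543 and 0.424 times the reads of miR-92a-3p in hearts 1 to 6, 2.07-fold lower in the fit (log2 −1.05, SE 0.06, adjusted p 7.50e-09). The approximate fold interval was 0.446 to 0.525, near the 2-fold limit. The call rests on the summed loci of miR-92a-3p, and the gap would be smaller if shared reads were counted at each locus. miR-25-3p was 28.9-fold above miR-32-5p (log2 4.85, SE 0.11, adjusted p 1.29e-12) and 59.5-fold above miR-92b-3p (log2 5.90, SE 0.15, adjusted p 4.10e-12). Both of these held in 6 of 6 hearts.

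Because the 3 hairpins lie in 1 intron, their levels were compared across hearts, on log2 CPM after TMM scaling. Relative to their means, hearts 1 to 6 stood at 0.55, 0.13, 0.11, −0.34, −0.10 and −0.34 for miR-106b-5p. For miR-93-5p the values were 0.21, 0.13, −0.01, −0.26, −0.02 and −0.06. miR-25-3p had 0.13, 0.01, −0.00, −0.22, −0.01 and 0.09. Heart 1 was above the mean and heart 4 below it in each of these arms, while heart 6 was below the mean in the 5p arms and above it in miR-25-3p.

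**Figure D4:**
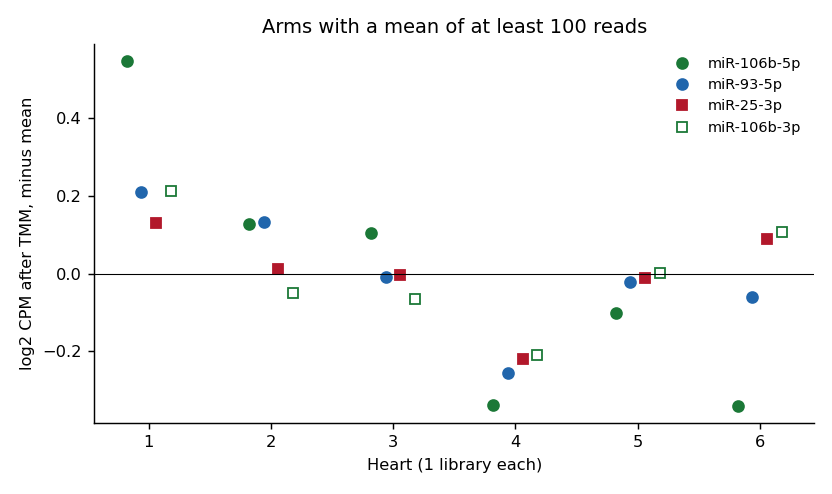
log2 CPM after TMM scaling minus each arm's mean, against heart, 1 point per library. Heart 1 lies above 0 and heart 4 below 0 in all 4 arms, and in heart 6 miR-106b-5p lies at −0.34 and miR-106b-3p at 0.11.

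Over 62128 pairs of miRNAs that averaged 10 or more reads, 0 (0%) passed adjustment (exact permutation test, two-sided, smallest adjusted p 0.71). Of those pairs 6.31% had an unadjusted exact p under 0.05, 3.27% with a positive r. Among the 8 pairs of member arms from different hairpins, 2 had such a positive r and 1 a negative one, and the median r was 0.65 against −0.0011 for all pairs. The negative pair and 1 of the positive pairs include miR-106b-3p, in which the hearts did not differ beyond counting error. The arms share their libraries and depth, and miRNAs are not independent replicates.

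miR-106b-5p with miR-93-5p gave r 0.88 (exact permutation p 0.0194, 0.741 after adjustment). Its rho was 0.94 (exact p 0.0167), and leaving out hearts 1 and 6 gave r 0.93. miR-106b-3p with miR-25-3p gave r 0.93 (exact permutation p 0.00694, 0.71 after adjustment). Its rho was 0.83 (exact p 0.0583), and r was 0.87 when hearts 1 and 4 were left out. Hearts did not differ beyond counting error in miR-106b-3p (chi-square test, adjusted p 0.424), so any r with this arm may reflect counting error. miR-93-5p with miR-25-3p gave r 0.82 (exact permutation p 0.0528, 0.776 after adjustment), with rho 0.66 (exact p 0.175). It rested on hearts 1 and 4, without which r was −0.37, and on library totals without TMM r was 0.61 (exact permutation p 0.189). miR-106b-3p with miR-93-5p gave r 0.72 (exact permutation p 0.0958, 0.812 after adjustment), with rho 0.49 (exact p 0.356), and it too rested on hearts 1 and 4, with r −0.63 once they were left out. miR-106b-5p with miR-25-3p gave r 0.58 (exact permutation p 0.217, 0.873 after adjustment), with rho 0.43 (exact p 0.419), but r 0.91 once hearts 1 and 6 were left out. Without heart 4 alone r was 0.35. The 2 hearts left out were those farthest from the median in 1 arm of each pair, which was miR-106b-5p wherever it took part. In miR-106b-5p hearts 4 and 6 lay almost equally far (both −0.34), so leaving out heart 6 and not heart 4 was close to a tie.

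Within the miR-106b hairpin, the 5p with the 3p arm gave r 0.56 (exact permutation p 0.242, 0.883 after adjustment), with rho 0.26 (exact p 0.658), and r 0.69 when hearts 1 and 6 were left out. Without heart 1 alone r was −0.03 and without heart 6 alone it was 0.91. miR-93-3p, with 136 reads, gave r −0.84 with miR-106b-3p (exact permutation p 0.0389, 0.76 after adjustment), which is the negative pair above, with rho −0.77 (exact p 0.103). Leaving out hearts 1 and 4 gave −0.99. In neither of these 3p arms did the hearts differ beyond counting error (chi-square test, adjusted p 0.233 for miR-93-3p and 0.424 for miR-106b-3p).

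By r, the 5 miRNAs most like miR-106b-5p among 210 that averaged 100 or more reads were miR-345-5p (0.99), miR-378a-5p (0.94), miR-340-5p (0.91), miR-101b-3p (0.91) and miR-15b-5p (0.91). miR-93-5p came 11th. For miR-93-5p they were miR-144-5p (0.98), miR-451a (0.96), miR-193b-3p (0.94), miR-148b-3p (0.94) and miR-125b-2-3p (0.93), with miR-106b-5p 12th. For miR-25-3p they were miR-582-3p (0.95), miR-106b-3p (0.93), miR-330-5p (0.91), let-7i-3p (0.88) and miR-125b-2-3p (0.88), with miR-93-5p 11th. Thus miR-106b-3p was the only neighbour from the cluster in any of these lists of 5. In that arm the hearts did not differ beyond counting error (chi-square test, adjusted p 0.424). Further products of the miR-17-92 cluster included miR-19b-3p at 202 ± 28.3 CPM, miR-19a-3p at 27.3 CPM and miR-18a-5p at 13.8 ± 4.41 CPM. Over 9 arms of that cluster, r with miR-106b-5p ran from 0.02 (miR-92a-3p) to 0.99 (miR-18a-5p), with a median of 0.49. With miR-93-5p it ran from −0.24 (miR-92a-1-5p) to 0.86 (miR-18a-5p), median 0.35. With miR-25-3p it ran from −0.71 (miR-92a-1-5p) to 0.70 (miR-17-3p), median 0.15. The smallest adjusted p among them was 0.71 (exact permutation test).

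Both miR-451a and miR-144 are miRNAs of red cells and their precursors, which are present in blood. The 3 of 3 erythroid markers measured summed to 5878, 5169, 3752, 2264, 4125 and 2495 CPM in hearts 1 to 6, a 2.60-fold range. The hearts fall in the same order in miR-93-5p CPM as in this sum. miR-93-5p with miR-451a gave r 0.96 (exact permutation p 0.00278, 0.71 after adjustment). Its rho was 0.94 (exact p 0.0167), and r was 0.88 once the 2 hearts farthest from the median were left out. Over the 3 erythroid markers, r ran from 0.80 (miR-144-3p) to 0.98 for miR-93-5p and from 0.74 (miR-144-3p) to 0.90 for miR-106b-5p. It ran from 0.36 to 0.71 for miR-25-3p and from 0.25 to 0.61 for miR-106b-3p. With miR-451a, r turned to −0.75 for miR-25-3p and to −0.82 for miR-106b-3p once the 2 farthest hearts were left out.

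Other lists also moved with the members, in both directions. The 4 of 4 leukocyte markers measured summed to between 2033 and 2827 CPM with heart 1 highest. Their r with miR-106b-5p ran from −0.47 (miR-150-5p) to 0.86 (miR-142a-5p). For miR-142a-5p it was 0.57 and for miR-223-3p, at 0.71 before, −0.72 without the 2 farthest hearts. With miR-93-5p, r ran from −0.54 (miR-150-5p) to 0.73 (miR-142a-5p). Without the 2 farthest hearts, r with miR-93-5p was 0.97 for miR-142a-3p and 0.97 for miR-142a-5p. It was then 0.56 for miR-223-3p and 0.15 for miR-150-5p. Those values rest on the few hearts left. Over all 6 hearts, r was 0.70 for miR-142a-3p and 0.73 for miR-142a-5p, against 0.80 to 0.98 for the erythroid markers. Outside the marker lists, miR-193b-3p and miR-148b-3p each had r 0.94 with miR-93-5p over all 6 hearts. High r with miR-93-5p was thus not particular to the erythroid markers. The list of liver, nerve and skeletal muscle markers had an 8.26-fold range with heart 1 lowest and heart 4 highest, the ends opposite to those of miR-93-5p and miR-25-3p. Its 1 marker that averaged 10 or more reads, miR-122-5p of liver, had r −0.87 with miR-93-5p and −0.81 with miR-106b-5p. Of the 2 endothelial markers, miR-126a-3p had r −0.83 and miR-126a-5p −0.09 with miR-106b-5p, and their sum of 83979 to 97257 CPM was highest in heart 4. Smooth muscle markers summed to 65604 to 113480 CPM. With miR-25-3p, miR-143-3p had r 0.79 and miR-145a-5p r −0.09. The value of miR-143-3p had a rho of 0.37 and fell to r 0.11 without heart 4. Fibroblast markers summed to 3103 to 5720 CPM, with r from −0.51 to 0.32 over the 4 main arms. Cardiac and skeletal muscle markers had r from −0.32 to 0.36 over these arms. Over the 76 relations of 19 markers with 4 arms, the smallest p adjusted over all pairs of miRNAs was 0.71 (exact permutation test). The part of any of these cells in the members' differences between hearts was not tested, and in such bulk tissue fewer cells of a type and less RNA per cell cannot be told apart.

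**Figure D5:**
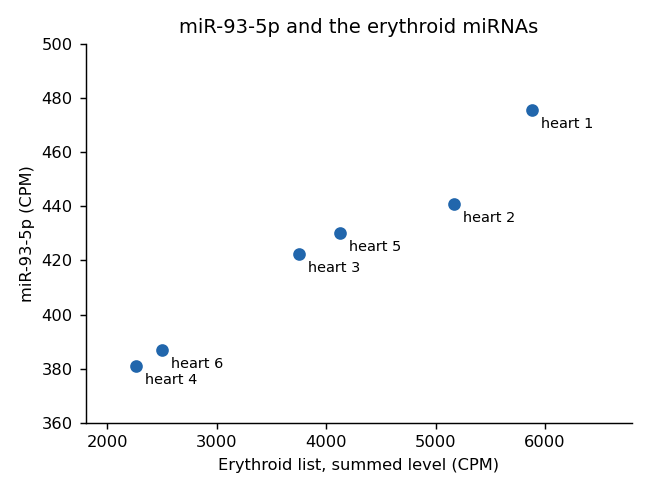
miR-93-5p (CPM) against the summed level of the 3 erythroid miRNAs (CPM), 1 point per heart. Neither axis starts at 0. Heart 1 is highest on both (5878 and 476 CPM) and heart 4 lowest on both (2264 and 381 CPM).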

How the data were processed

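The authors deposited 1 table per library of whole-number read counts per miRNA arm and locus, not normalized, with a name, a location and a count per the file headers. The submitters' processing notes name GRCm38 as build, and list DESeq and edgeR, giving neither role nor version. Aligner, counter and the handling of multi-mapping reads were not given in the sources used here. Entries were named by overlap with RefSeq mature sequences (at least 10 bases), 807 of 1026 sense entries, and otherwise by the files' names. Of 76 antisense entries, 39 were assigned to the hairpin on the opposite strand and 37 were left out. Summing loci gave 994 miRNAs. Host gene positions come from a GENCODE annotation of GRCm38.

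The samples form 1 group, named heart 1 to heart 6 by the replicate number in the labels. Ratios were tested with edgeR 4.0.16 (R 4.3.3) with the library as a block, Benjamini-Hochberg adjustment and a 2-fold limit. The sets were all hairpins, all pairs of hairpins of the same cluster, or pairs of the same seed. Clusters joined hairpins within 10 kb of a neighbour on the same strand. DESeq2 1.42.0, an exact sign-flip test and other settings were alternatives. Correlations used exact permutation over the 6 libraries with scipy 1.17.1. The prior count was 1. All tests were checked on simulated data.

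Named miRNAs are the 6 arms, the measured miRNAs that share a seed with a main arm or lie in the miR-17-92 or miR-106a-363 clusters, and the 5 most alike to each main arm. Cell type markers are named from fixed lists, those singled out for their r were chosen after their values were seen, and miR-486-5p is named only for an alternative library total. Members, marker lists and tests were chosen with earlier results of these data known. The labels do not say outright that the libraries come from separate animals, so p-values measure only the spread between these samples, which may be technical. Without molecular identifiers, the Wilson intervals cover counting error only. Each SE of an edgeR ratio was derived from the log2 ratio and the F statistic of the test. Fold intervals apply a normal multiplier of 1.96 to that SE and include the fitted spread between libraries. The F test has limited degrees of freedom, so these intervals are approximate and can be too narrow.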

Additional observations from a re-analysis of the deposited data

How the results depend on the processing

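Of 381 alternatives over 37 results, 349 were labelled the same, 16 weaker, 2 stronger, 3 moved and 11 reversed. In tests the same means the same direction and side of the threshold, which for correlations was an unadjusted p of 0.05. Levels and the number of miRNAs beyond counting error have no direction or threshold. For them it means a value that stayed near the main value, for levels within the SD over hearts. Of the 11, 8 concern values that were not called. Arms taken alone turned some hairpin ratios round, by construction of the dominant arms. In log2, miR-93 over miR-106b was −2.95 with the 3p arms alone. With the 5p arms alone miR-25 over miR-106b was −6.50 and miR-25 over miR-93 was −8.82. The others kept their direction. miR-93 over miR-106b was 2.33 with the 5p arms alone. With the 3p arms alone miR-25 over miR-106b was 5.10 and miR-25 over miR-93 was 8.04. Leaving miR-486-5p out of the library totals raised every member arm, since the totals shrink. The rise exceeded the SD over hearts in miR-106b-3p (to 41.7 CPM), miR-93-5p (to 493.8 CPM) and miR-25-3p (to 1427 CPM). It stayed within the SD in the others, as in miR-106b-5p (to 99.96 CPM). Leaving out 1 heart at a time gave adjusted p from 0.000469 to 0.153 for the arm share of miR-106b. It gave r from 0.80 to 0.93 for miR-106b-5p with miR-93-5p, and from 0.45 to 0.96 for miR-93-5p with miR-25-3p. Over the scalings and prior counts tried, r ran from 0.86 to 0.94 for the first of these pairs and from 0.61 to 0.82 for the second. For miR-106b-3p it ran from 0.50 to 0.72 with miR-93-5p and from 0.91 to 0.93 with miR-25-3p. For miR-106b-5p with miR-25-3p it ran from 0.48 to 0.73. miR-106b-5p with miR-93-5p had r 0.90 (exact p 0.0833) without hearts 4 and 5 together. miR-106b-5p with miR-25-3p had r 0.91 (exact p 0.0417) without the 2 hearts farthest from the median of miR-106b-5p, hearts 1 and 6. Heart 4 lay almost as far as heart 6 (both −0.34), so that choice was close to a tie. Without heart 4 alone r was 0.35, and the cause was not tested. With the 2 farthest hearts of each pair left out, r was −0.37 for miR-93-5p with miR-25-3p, −0.63 for miR-106b-3p with miR-93-5p, 0.34 for miR-93-3p with miR-25-3p and 0.70 for miR-106b-5p with miR-93-3p. The last pair, at −0.18 over all hearts, had a rho of 0.086 and ran from −0.66 to 0.72 when 1 heart at a time was left out, the highest without heart 1. Leaving out 1 heart at a time, the log2 ratio of miR-106b-5p over miR-20a-5p ran from −0.053 to 0.064, below 0 without heart 1 or heart 3. Without the replicate block no call changed, and the log2 ratio of 5p to 3p of miR-106b was 1.25. Depth limits miR-25-5p, at 27 reads, and miR-93-3p, at 136 reads.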
